A study of Mus musculus with 6 samples.

Results

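Primordial germ cells are the embryonic founders of eggs and sperm. The 10 genes described here are grouped as specification genes of these cells, and include markers as well as regulators. They are Prdm1, Prdm14, Tfap2c, Ifitm1, Ifitm3, Alpl, Nanos2, Nanos3, Dnd1 and Tcl1. They were taken by name, as every array feature (probe set) whose platform annotation names exactly 1 of them. This gave 10 probe sets for 8 of the 10 genes, out of 18193 genes named on the array. Nanos2 and Nanos3 had 0 probe sets so named and have no array values here. The arrays came from fetal mouse ovaries, taken at E15.5 (days of embryonic development), 3 labelled as a knockout of the DM domain transcription factor Dmrt1 and 3 labelled wild type. The series' title calls the knockout conditional; the Cre line, the cells it acts in, the strain, the allele and the number of animals per sample are not given in the sources used here. The labels name no treatment. The labels number the samples as replicates 1 to 3 of each group without naming separate animals, so p-values cover no more than how these samples vary, and part or all of that can be technical.

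As background, bone morphogenetic protein signals from neighbouring tissue induce Prdm1 and Prdm14 in a few cells of the early mouse embryo, and with Tfap2c these factors switch off the somatic program and restart genes of pluripotency. The founder cells carry IFITM proteins and tissue-nonspecific alkaline phosphatase on their surface, and later depend on the RNA-binding proteins of Nanos3 and Dnd1. In the fetal ovary their descendants leave this early state and enter meiosis, after which most of the early genes are low.

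The largest differences between the knockout and wild-type arrays were those of Alpl, Tfap2c, Prdm14 and Tcl1, all highest on knockout replicate 1. For Prdm14 and Tcl1 it was the only array to reach an intensity of 16, the filter level, so neither was tested. Differences were small in Prdm1, Ifitm1 and Ifitm3. Of the 5 genes bright enough to be tested, 0 rose and 0 fell (limma, Benjamini-Hochberg adjusted p at most 0.05 over 22040 probe sets), against 1.28% of all 11897 tested genes that rose and 2.27% that fell. The smallest adjusted p was that of Alpl, at 0.0671. With no adjustment, 2 of the 5, Tfap2c and Alpl, had a p under 0.05, as did 17.4% of all tested genes. The median log2 difference, knockout minus wild type, was 0.22 over the 5 genes and 0.02 over all tested genes. Values are intensities that the authors made with GCRMA, on a linear scale. A probe set was tested when at least 3 of the 6 arrays reached an intensity of 16, and a gene was counted through its brightest probe set.

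**Figure D1:**
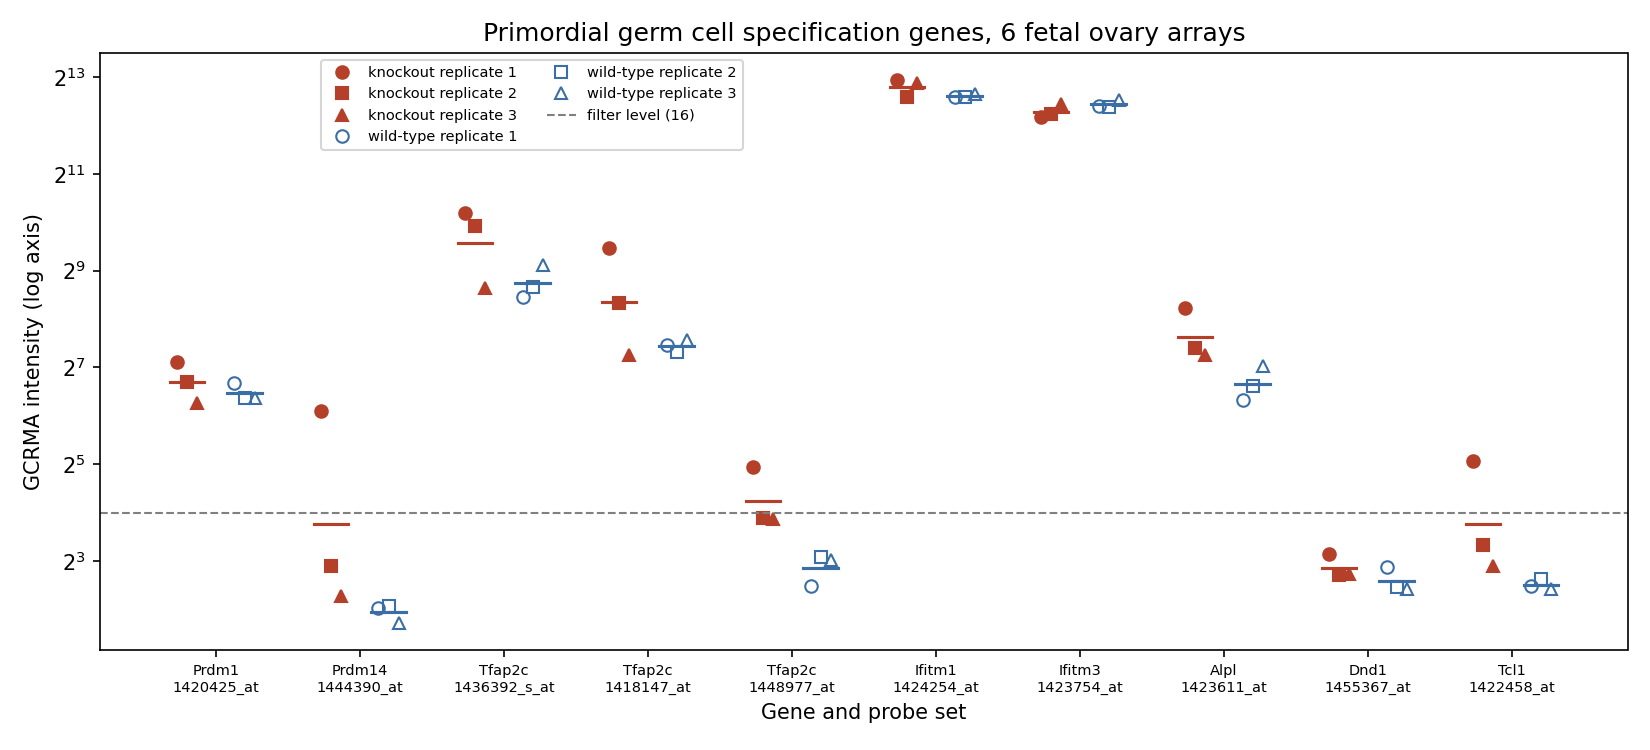
Intensity (vertical log axis) of the 10 probe sets on each array, knockout at the left and wild type at the right of each pair, with the group mean of the log2 values as a bar and the filter level of 16 as a dashed line. Knockout replicate 1 is the highest of the 6 arrays for every probe set but that of Ifitm3.

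Knockout replicate 1 stood apart from the other arrays before these genes are considered. Xist, the RNA that silences an X chromosome in female cells, read 3.15 to 4.0 on its 3 probe sets there, against 570.4 to 1090 on the other knockout arrays and 934 to 2718 in wild type, while 9 probe sets of Y-linked genes lay under the filter level on all 6 arrays. Dmrt1 read 8.55, 5.97 and 7.46 on knockout replicates 1, 2 and 3 and 8.47, 8.51 and 13.0 on the wild-type arrays, under the filter level everywhere, so it does not check the genotype labels. The correlation of log2 values over tested probe sets was 0.985 to 0.993 for arrays of a group and 0.973 to 0.980 for arrays of different groups. For Gapdh, the 3' control exceeded the 5' control, a measure of RNA integrity, by log2 values of 1.13, 1.17 and 1.52 on knockout replicates 1, 2 and 3 and 1.30, 0.99 and 0.99 on the wild-type arrays. The gaps for actin were larger, at 2.45, 2.75 and 2.68 on the knockout and 2.74, 2.42 and 2.28 on the wild-type arrays. Beside each specification gene bright enough for any fold, the difference without knockout replicate 1 is therefore given too. In the fit without it, 0 of the 5 tested specification genes passed, while 0.731% of all tested genes rose and 1.41% fell.

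Starts of 7 of the 10 genes, taken from RefSeq (GRCm38.p6), were searched here: Alpl, Tcl1, Prdm1, Ifitm1, Ifitm3, Nanos2 and Nanos3. No start of Prdm14, Tfap2c or Dnd1 was searched, so the motif results below do not cover them. A chromosome was left out for the 10 genes but not for the shares over all stretches. The 250 bases before the start are printed for Alpl and Tcl1, the genes among these 7 for which all knockout arrays lay above all wild-type arrays. Capitals mark GGGCGG, the GC box, and TATAAA, the TATA box, each searched on both strands. The first Alpl stretch is chr4:137796385-137796634 and the second chr4:137766476-137766725, and that of Tcl1 is chr12:105222738-105222987, all on the minus strand and printed 5' to 3' towards the start.
Alpl, upstream start: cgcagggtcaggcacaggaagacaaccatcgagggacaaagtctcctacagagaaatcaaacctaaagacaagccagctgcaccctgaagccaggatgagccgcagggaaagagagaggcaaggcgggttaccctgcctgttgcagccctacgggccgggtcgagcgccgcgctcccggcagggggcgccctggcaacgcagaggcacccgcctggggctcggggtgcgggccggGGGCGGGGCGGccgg
Alpl, downstream start: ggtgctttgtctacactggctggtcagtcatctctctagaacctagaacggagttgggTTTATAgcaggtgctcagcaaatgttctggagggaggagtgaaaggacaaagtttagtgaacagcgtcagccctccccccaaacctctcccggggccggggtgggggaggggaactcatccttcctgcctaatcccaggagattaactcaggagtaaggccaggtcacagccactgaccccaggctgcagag
Tcl1: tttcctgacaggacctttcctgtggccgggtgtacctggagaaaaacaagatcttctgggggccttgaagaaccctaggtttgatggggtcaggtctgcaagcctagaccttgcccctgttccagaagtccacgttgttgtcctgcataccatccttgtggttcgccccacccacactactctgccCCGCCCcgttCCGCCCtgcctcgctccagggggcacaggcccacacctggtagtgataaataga
The upstream Alpl start has 2 overlapping GC boxes, whose first bases lie 15 and 10 bases before it, and the downstream start has a TATAAA match on the opposite strand beginning 192 bases before it. Tcl1 has 2 GC boxes on the opposite strand, beginning 64 and 54 bases before its start. GGGCGG occurs in 32.7% and TATAAA in 12.4% of all 32851 stretches of this length in the table. ACANTGT, the core of the element that DM domain proteins bind, which reads the same on both strands, occurs in 6.47% of them and in 0 of the 8 stretches of these 7 genes. Such matches describe the letters of these windows and nothing more.

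Prdm1 encodes BLIMP1, the repressor that shuts down somatic genes in the founder cells. It read 138, 104 and 77.3 on knockout replicates 1, 2 and 3 and 103, 82.1 and 83.2 on the wild-type arrays. The groups overlapped, with the highest and the lowest of the 6 values both in knockout. Its log2 difference of 0.22 ± 0.23 (SE, n = 3 per group) did not pass the test (limma adjusted p = 0.642), and without knockout replicate 1 it was 0.01 (limma adjusted p = 0.981).

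Prdm14, which restores pluripotency genes and drives the erasure of epigenetic marks in the founder cells, showed the widest contrast between single arrays. It read 68.4 on knockout replicate 1, 7.47 on knockout replicate 2 and 4.82 on knockout replicate 3, against 4.11, 4.22 and 3.31 on the wild-type arrays. Only knockout replicate 1 reached the filter level, so the probe set was not tested and the order of the other 5 values has little meaning. With arrays of both groups under the level set at it, knockout was 1.62-fold higher over its 3 arrays. That ratio came from knockout replicate 1 alone, which read 4.27 times the level, and is not a lower bound. With no filter on low values its log2 difference of 1.81 did not pass (limma adjusted p = 0.194), and without knockout replicate 1 the difference was 0.64, between values that all lay under the level.

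Tfap2c encodes AP-2 gamma, the third of these transcription factors, and has 3 probe sets on the array. The brightest, 1436392_s_at, is of a kind that can match several transcripts. It read 1167, 966 and 396 on knockout replicates 1, 2 and 3 and 350.4, 403 and 558 on the wild-type arrays. Knockout replicates 1 and 2 lay above all wild-type arrays, while knockout replicate 3 lay among them. The log2 difference was 0.83 ± 0.35 (SE, n = 3 per group, 1.78-fold), and it did not pass (limma adjusted p = 0.210).

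The other Tfap2c probe sets were also highest on knockout replicate 1. Probe set 1418147_at read 708, 323 and 153 on knockout replicates 1, 2 and 3 and 176, 160 and 191 on the wild-type arrays, so that knockout replicate 1 was 4.05-fold and knockout replicate 2 1.85-fold above the wild-type mean of log2 values, and knockout replicate 3 was 0.874 of it. Its log2 difference was 0.90 ± 0.43 (limma adjusted p = 0.270). The dimmest, 1448977_at, read 30.7, 14.8 and 14.7 on knockout replicates 1, 2 and 3 and 5.56, 8.42 and 8.15 on the wild-type arrays. Here the groups did not overlap, but only knockout replicate 1 reached the filter level, so it was not tested. With no filter it was the 1 probe set of the 10 that passed (log2 difference 1.38 ± 0.29, limma adjusted p = 0.0157), where 2.94% of all 45037 probe sets rose. Without knockout replicate 1 its difference was 1.02, between values that all lay under the level. The 3 probe sets report 1 gene and are not independent of each other.

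The Tfap2c result turned on which knockout array was used. Without knockout replicate 3, both tested probe sets passed (1.31 ± 0.20, limma adjusted p = 0.00659, and 1.45 ± 0.29, limma adjusted p = 0.0218), where 1.22% of all tested genes rose. Without knockout replicate 1, the differences were 0.53 (limma adjusted p = 0.458) and 0.35 (limma adjusted p = 0.579). Both probe sets were among the most variable in knockout, with SDs of 0.83 and 1.11 log2 units among the knockout arrays, exceeded by 0.708% and 0.222% of the tested probe sets. Their SDs among wild-type arrays were 0.34 and 0.13 log2 units.

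**Figure D2:**
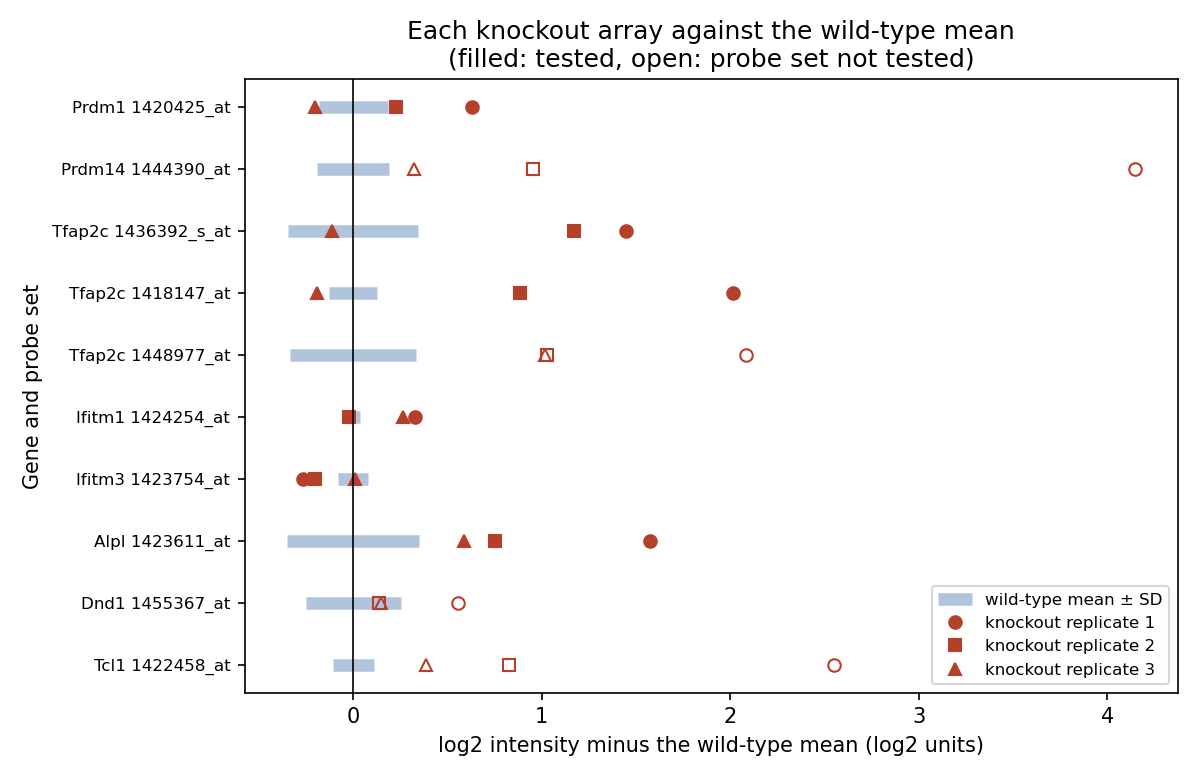
Each knockout array's log2 intensity minus the wild-type mean (horizontal axis, log2 units) for the 10 probe sets, with the wild-type mean ± SD as a bar at 0; filled symbols are tested probe sets and open symbols are probe sets not tested. Knockout replicate 1 lies 4.15 log2 units above the wild-type mean for Prdm14, 2.55 for Tcl1 and 1.58 for Alpl, and knockout replicate 3 lies close to it for Tfap2c probe sets 1436392_s_at and 1418147_at.

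Alpl, which encodes tissue-nonspecific alkaline phosphatase, the enzyme whose activity is the classical stain for primordial germ cells, was the 1 tested gene of the 5 whose groups did not overlap. It read 301.3, 170.04 and 152 on knockout replicates 1, 2 and 3 and 80.8, 97.7 and 131 on the wild-type arrays. Every knockout array lay above every wild-type array, as for 12.3% of all tested genes, but the lowest knockout and the highest wild-type value lay close together. The log2 difference was 0.97 ± 0.27 (SE, n = 3 per group, 1.96-fold), larger than the SDs of 0.53 in knockout and 0.35 in wild type, and it did not pass (limma adjusted p = 0.0671). A larger difference was found for 0.885% of the tested probe sets.

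The Alpl difference passed with array weights (1.08, limma adjusted p = 0.0357), with each array centred on its median (1.11, limma adjusted p = 0.0361) and without knockout replicate 3 (1.16, limma adjusted p = 0.0476). In these fits 1.98%, 4.25% and 1.22% of all tested genes rose. The array weights were 1.12, 0.58 and 0.55 for knockout replicates 1, 2 and 3, so among the knockout arrays that fit leaned most on replicate 1. Median centring used array medians that all lay under the filter level. Without knockout replicate 1 the Alpl difference was 0.67 (limma adjusted p = 0.155). Over the 17 other fits it ran from 0.67 to 1.16, with limma adjusted p from 0.0357 to 0.223. Alpl is also made outside germ cells, and a whole ovary does not show which cells its RNA came from. Endothelium markers summed to 1619 to 2085 on the knockout arrays and 2366 to 2747 on the wild-type arrays, with Cdh5 and Pecam1 under the filter level on all 6 arrays. Stroma markers summed to 31452 to 33955 on the knockout arrays and 36956 to 40982 on the wild-type arrays, so both sums were lower in knockout, where Alpl was higher. Of 7 endothelium genes 2 fell (1 without knockout replicate 1, where the adjusted p of Tek was 0.112 by limma), and 0 of 9 stroma genes passed. Their part in the result was not tested.

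**Figure D3:**
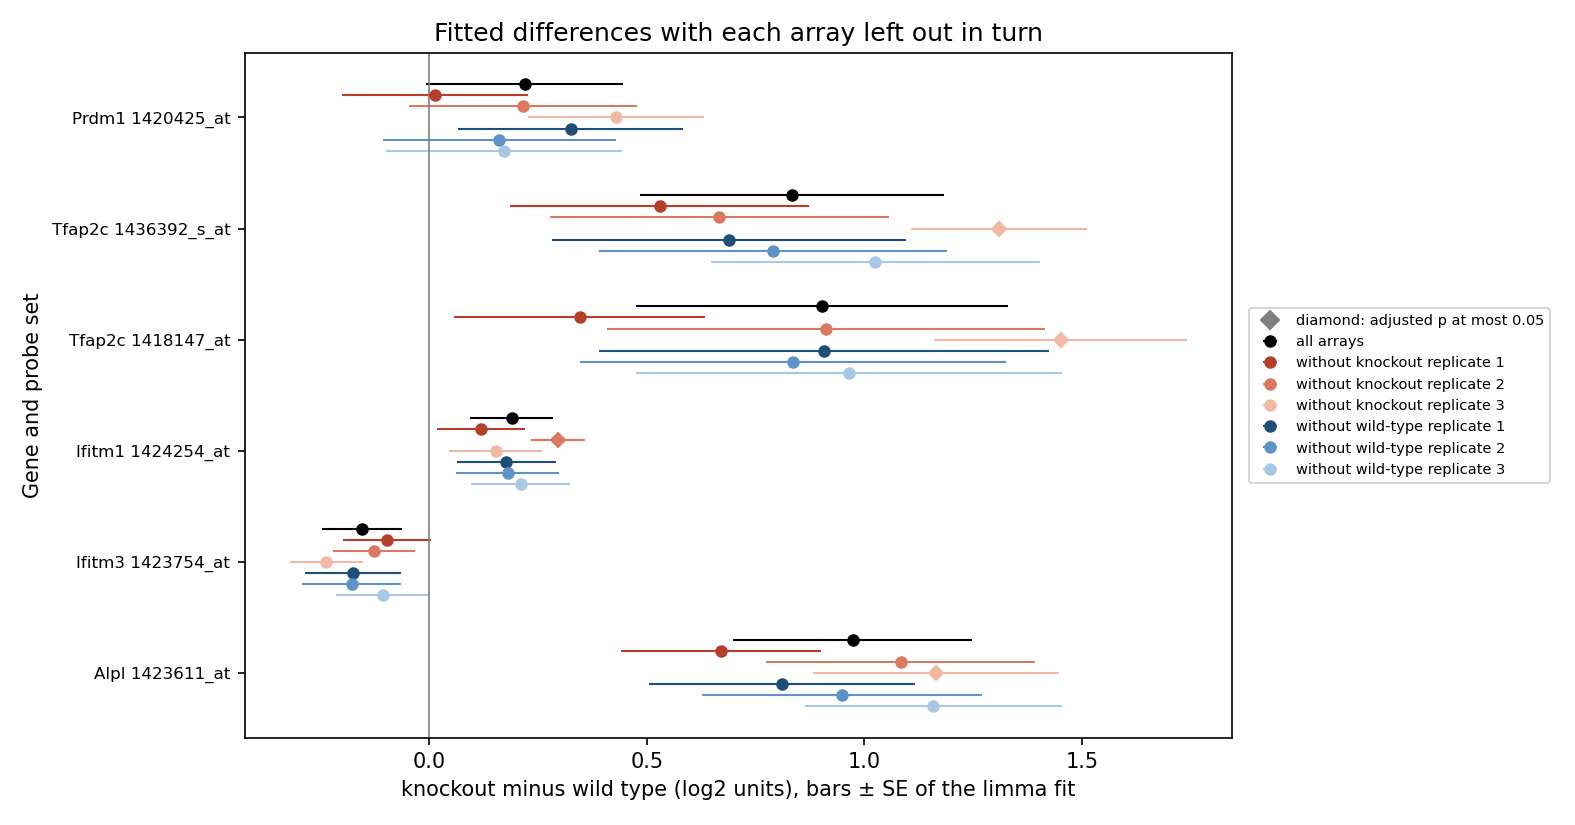
Fitted log2 difference, knockout minus wild type (horizontal axis, bars ± SE of the limma fit), for the 6 tested probe sets with all arrays and with each array left out in turn; diamonds mark an adjusted p of at most 0.05. Leaving out knockout replicate 1 gives the lowest value for each probe set of Prdm1, Tfap2c, Ifitm1 and Alpl, and both Tfap2c probe sets and Alpl pass without knockout replicate 3.

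Ifitm1 and Ifitm3 encode small membrane proteins, also called Fragilis2 and Fragilis, that mark the founder cells in the mouse and that many other cell types make as well. Both were among the bright probe sets of these ovaries. Ifitm1 read 7821, 6117 and 7461 on knockout replicates 1, 2 and 3 and 6119, 6140 and 6406 on the wild-type arrays. Knockout replicates 1 and 3 lay above the wild-type arrays, knockout replicate 2 just under them, and the log2 difference of 0.19 ± 0.09 (SE, n = 3 per group) did not pass (limma adjusted p = 0.298). It passed without knockout replicate 2 (0.30 ± 0.06, limma adjusted p = 0.0251), where 1.92% of all tested genes rose, and without knockout replicate 1 it was 0.12 (limma adjusted p = 0.589).

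Ifitm3 read 4598, 4801 and 5579 on knockout replicates 1, 2 and 3 and 5368, 5345 and 5902 on the wild-type arrays. It was the 1 tested gene of the 5 with a negative difference, and the 1 whose highest value was not on knockout replicate 1. Its log2 difference of -0.15 ± 0.09 did not pass (limma adjusted p = 0.390), and neither did any of 17 other fits, which ran from -0.24 to -0.02. Without knockout replicate 1 it was -0.10 (limma adjusted p = 0.669). Their relative Ifitm2 differed by -0.02 ± 0.09 (limma adjusted p = 0.945). Macrophage markers, which belong to cells that also make IFITM proteins, summed to 3877 to 6352 on the knockout arrays and 5862 to 7270 on the wild-type arrays, lowest on knockout replicate 1, and 2 of 10 fell (0 without knockout replicate 1). Their part in the Ifitm3 values was not tested.

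Of the genes for RNA-binding proteins, Nanos2, Nanos3 and Dnd1, only Dnd1, which protects germ cell transcripts and whose loss in mice leads to germ cell death or teratoma, has a probe set here. It read 8.81, 6.59 and 6.63 on knockout replicates 1, 2 and 3 and 7.32, 5.51 and 5.33 on the wild-type arrays. All 6 values lay under the filter level and the groups overlapped, so it gives no fold.

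Tcl1 encodes a coactivator of the kinase AKT that is known from pluripotent cells and lymphocytes. It read 33.4, 10.1 and 7.47 on knockout replicates 1, 2 and 3 and 5.57, 6.21 and 5.38 on the wild-type arrays. As for Prdm14, every knockout value lay above every wild-type value while knockout replicate 1 alone reached the filter level. With arrays of both groups under the level set at it, knockout was 1.28-fold higher over its 3 arrays. This again came from knockout replicate 1 alone, at 2.09 times the level, and is not a lower bound. With no filter its log2 difference of 1.25 did not pass (limma adjusted p = 0.116), and without knockout replicate 1 the difference was 0.61, between values that all lay under the level. The 4 lymphocyte markers on the array, Cd79a, Cd3e, Cd3g and Rag1, lay under the filter level on all 6 arrays.

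Across the set, knockout replicate 1 gave the highest of the 6 values for 7 of 8 genes, 4 of them among the 5 tested, while it was the highest array for 16.8% of all tested genes and 17.3% of all genes on the array. The probe sets of Prdm14 and Tcl1 and 1448977_at of Tfap2c reached the filter level on knockout replicate 1 and on no other array, a pattern shared by 160 of 45037 probe sets (0.355%). The other arrays had 83 to 208 such probe sets each, none of them for these genes. Over the 5 tested genes, the mean log2 value lay 0.74, 0.38 and 0.11 above the wild-type mean on knockout replicates 1, 2 and 3, while the wild-type arrays themselves lay between -0.09 and 0.16. Knockout replicate 3 thus lay within the wild-type range on this measure, and knockout replicates 1 and 2 above it. On knockout replicate 2 the mean rested mostly on Tfap2c (1.17) and Alpl (0.75), while Prdm1 lay at 0.23, Ifitm1 at -0.02 and Ifitm3 at -0.20.

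The genes with patterns most like the 3 members of smallest p were found by the root mean square difference of centred log2 values over the 6 arrays. For Alpl these were Mageb16, Slc22a18 and Id1, at distances of 0.14 for each, against a median of 0.62 over 11896 genes. Mageb16, the nearest, passed (1.08 ± 0.27, limma adjusted p = 0.0428), and Slc22a18 did not (0.91 ± 0.30, limma adjusted p = 0.107). Id1, the third, read 263, 138 and 120.2 on knockout replicates 1, 2 and 3 and 64.8, 102 and 122 on the wild-type arrays, and did not pass (0.81 ± 0.32, limma adjusted p = 0.177). For Tfap2c they were Lipg, Etv5 and Septin10, at 0.14 to 0.20 against a median of 0.68. Etv5, an ETS transcription factor, read 183, 150.4 and 67.0 on knockout replicates 1, 2 and 3 and 73.7, 80.4 and 98.5 on the wild-type arrays, with knockout replicates 1 and 2 above and knockout replicate 3 below the wild-type arrays. For Ifitm1 they were Dera, Adsl and Tmem106c, at 0.02 to 0.03 against a median of 0.23.

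Signals that induce the founder cells did not pass. Of 13 tested ligands, receptors, SMAD proteins and targets, 0 rose and 0 fell, with a median log2 difference of 0.03 and 4 with an unadjusted p under 0.05. Bmp4, the ligand needed for induction in the mouse embryo, read 331, 393 and 416 on knockout replicates 1, 2 and 3 and 499.6, 497 and 580 on the wild-type arrays. The knockout arrays all lay below, with a difference of -0.47 ± 0.15 (SE, limma adjusted p = 0.0952). The receptor Bmpr2 (-0.33 ± 0.10, limma adjusted p = 0.0779) and the signal transducer Smad5 (-0.56 ± 0.18, limma adjusted p = 0.106) also lay below on every knockout array. Bmp8b, Wnt3 and Eomes lay under the filter level on all arrays.

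Somatic genes of the epiblast that BLIMP1 represses in the mouse were mostly dim, with 5 of 8 under the filter level on every array and 2 tested. The difference of Lhx1 was 0.41 ± 0.19 (SE, limma adjusted p = 0.255) and that of Snai1 -0.26 ± 0.19 (limma adjusted p = 0.498). Of 16 tested partners of the member proteins, 0 passed, with a median of -0.0021. The smallest p there belonged to Akt1, the kinase that Tcl1 binds (-0.21 ± 0.10, limma adjusted p = 0.244), the arginine methyltransferase Prmt5 (-0.26 ± 0.13, limma adjusted p = 0.291) and Cnot9, a subunit of the deadenylase that NANOS proteins recruit (0.32 ± 0.17, limma adjusted p = 0.318). None of 12 tested relatives of the members passed either, where the smallest p belonged to Mtcp1, a relative of Tcl1 (-0.26 ± 0.09, limma adjusted p = 0.133), Prdm11 (-0.45 ± 0.16, limma adjusted p = 0.134) and Nanos1 (0.47 ± 0.24, limma adjusted p = 0.317). Another 12 relatives lay under the filter level on every array, among them Tcl1b1, Tcl1b3 and Tcl1b4. The median log2 difference of the tested relatives was -0.14. Centring each array on its median added 0.14 to log2 differences over all probe sets, and the medians were then 0.17 for the inducing signals, 0.13 for the partners and -0.0047 for the relatives.

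Of 9 other early germ cell genes tested, 4 rose and 0 fell (Sall4, Dppa3, Sox2 and Lin28a), and the same count of 4 rose without knockout replicate 1. Sall4 and Lin28a reached the filter level on all 6 arrays. Sox2 reached it on 0 and Dppa3 on 1 of the 3 wild-type arrays, so these genes entered the test only through the knockout arrays, where they were high, and the count is a description. The other 5 did not pass, among them Pou5f1 (1.53, limma adjusted p = 0.122), Nanog (1.47, limma adjusted p = 0.139) and Tfcp2l1 (-0.25, limma adjusted p = 0.637). This list was drawn up with those rises already known and is no independent evidence of its direction. Sall4, which encodes a zinc finger transcription factor, read 2995, 1047 and 554 on knockout replicates 1, 2 and 3 and 94.8, 193 and 209.5 on the wild-type arrays (log2 difference 2.94 ± 0.52, limma adjusted p = 0.00728). Dppa3 read 1182, 197 and 76.8 on knockout replicates 1, 2 and 3 and 12.2, 12.1 and 18.8 on the wild-type arrays (limma adjusted p = 0.00817). For both, knockout replicate 1 was the highest array, as it was for Prdm14, Tfap2c, Alpl and Tcl1, and knockout replicate 3 still lay above every wild-type array.

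**Figure D4:**
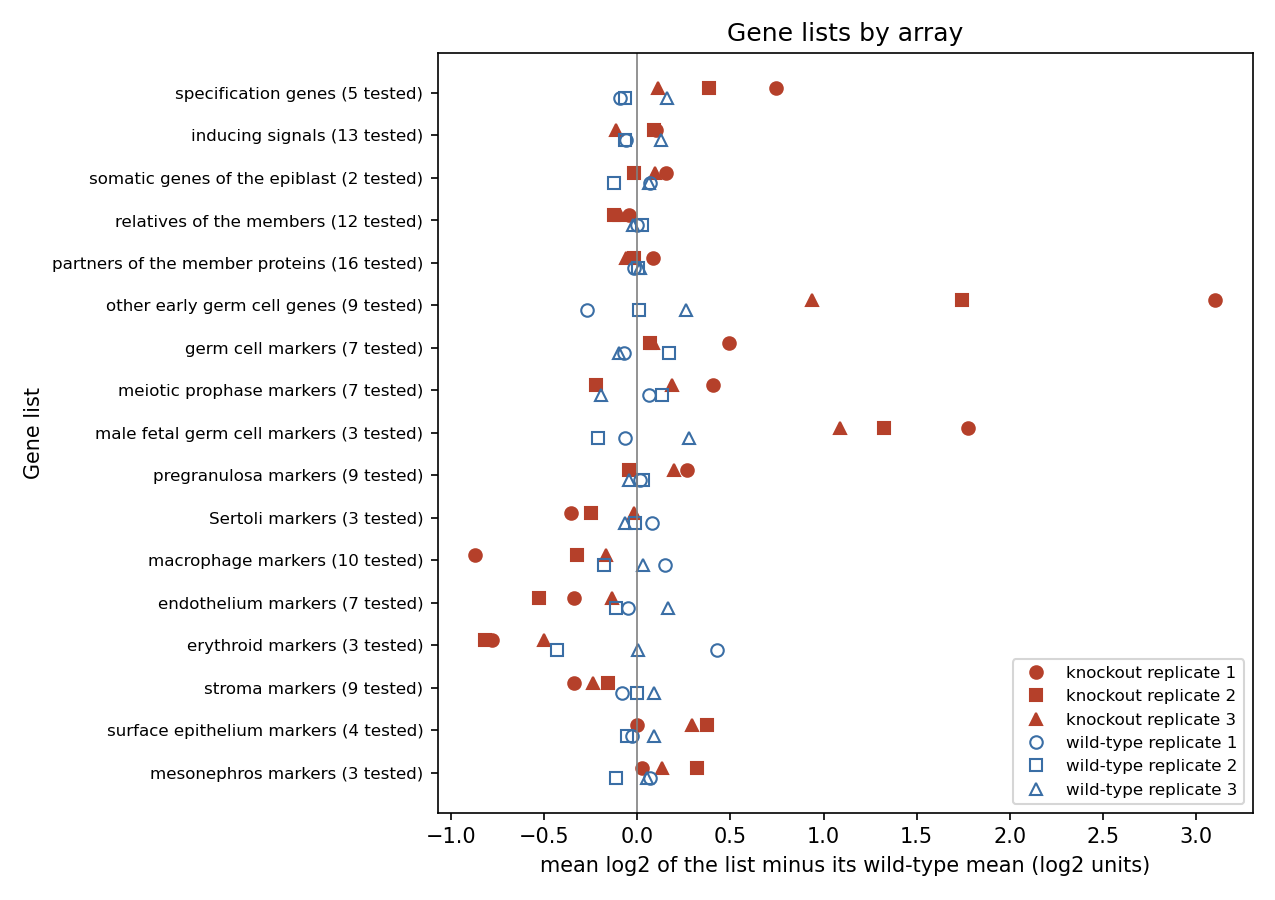
Mean log2 value of the tested genes of each list on each array minus the list's wild-type mean (horizontal axis, log2 units), with knockout arrays drawn above wild-type arrays in each row. The specification genes reach 0.74 on knockout replicate 1 and 0.11 on knockout replicate 3, the other early germ cell genes 3.11 and 0.94, and the germ cell markers 0.49 and 0.08.

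Whole ovaries were measured, so more cells of a type and more RNA per cell cannot be told apart. General germ cell markers summed to 15469 to 20616 on the knockout arrays, highest on replicate 1, and to 13947 to 16974 on the wild-type arrays, and 0 of 7 tested passed. Dazl, an RNA-binding protein of germ cells, had the largest difference of the 7 (0.48 ± 0.19, limma adjusted p = 0.183). It read 4118, 3278 and 2273 on knockout replicates 1, 2 and 3 and 2062, 2555 and 2167 on the wild-type arrays. Ddx4 had the smallest p (0.43 ± 0.16, limma adjusted p = 0.161), and only Tex101 had a negative difference (-0.21). Sycp3 differed by 0.0049 and on knockout replicate 1 lay below every wild-type array. Knockout replicate 1 was thus high in the mean of the germ cell markers as well as in Alpl, Tfap2c, Prdm14 and Tcl1. That mean lay 0.49 log2 units above wild type, against 0.74 for the mean of the 5 tested specification genes on the same array. Single specification genes there lay at 1.58 (Alpl), 1.45 (the brightest Tfap2c probe set), 0.63 (Prdm1), 0.33 (Ifitm1) and -0.27 (Ifitm3). Single germ cell markers there ran from -0.10 (Sycp3) to 0.87 (Dazl). Male fetal germ cell markers summed to 2494 to 4009 on the knockout arrays and 1742 to 2414 on the wild-type arrays, and of 3 tested, Piwil4 rose (2.72 ± 0.37, limma adjusted p = 0.00174). Dnmt3l, Nodal, Lefty1, Lefty2 and Tdrd5 lay under the filter level on all 6 arrays. Of pregranulosa, Sertoli, meiotic, surface epithelium and mesonephros markers, 0 of 9, 0 of 3, 0 of 7, 0 of 4 and 0 of 3 passed, and of erythroid markers 1 of 3 fell, Slc4a1, which did not pass without knockout replicate 1 (limma adjusted p = 0.0837). All 9 pregranulosa markers were bright enough to be tested, while Amh and Cyp26b1 of the Sertoli list lay under the filter level on every array. The part of these cell types in the values of the specification genes was not tested.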

How the data were processed

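Ovaries of E15.5 embryos were profiled on 6 Affymetrix arrays, 3 per genotype, and grouped by the sample descriptions. The deposited values are intensities on a linear scale that the authors made with GCRMA (background adjustment, normalization and summary per probe set), per the submitters' processing notes; its version is not given in the sources used here. GCRMA compresses low signals near a floor, so differences between dim values mean little, and it leaves no detection calls. The number of arrays limits the precision.

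Values were log2-transformed. Of 45101 probe sets, 64 controls were left out, and 22040 with a log2 value of at least 4 (intensity 16) on at least 3 of 6 arrays were tested. Symbols came from the platform annotation, and 34741 of 34945 single-gene probe sets matched RefSeq (GRCm38.p6) by gene identifier. The 2-sided comparison of genotypes used limma 3.58.1 under R 4.3.3 (lmFit and eBayes, trend on intensity, no covariates), and p-values were adjusted by Benjamini-Hochberg over all tested probe sets. Errors of differences are limma's moderated SEs.

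Named genes are all 10 members, up to 3 tested genes of smallest p per list, and 3 nearest patterns for each of 3 members. Ifitm2, Dazl with its arrays, Sycp3, Tex101 and genes named as under the filter level were added after their values were seen, as was Lin28a. The members and lists were chosen with earlier results of these data known. Alternatives were no filter or a stricter one (log2 6), eBayes without the trend or robust, a replicate block, array weights, median centring, quantile normalization, a pseudocount of 16, no _x_at or _s_at probe sets, averaged probe sets, and each array left out. The fit was tested on simulated data, and 0 pairs of arrays were identical.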

Additional observations from a re-analysis of the deposited data

How the results depend on the processing

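Over all probe sets, 321 rose and 1134 fell (22.1% of calls rose). With no filter on low values 1325 rose and 1957 fell (40.4%), and with the stricter filter 140 rose and 504 fell. Median centring, which shifts every log2 difference by 0.14, gave 874 that rose and 829 that fell (51.3%). The medians it used were 13.15 to 13.4 on the knockout and 14.37 to 14.74 on the wild-type arrays, all under the filter level. Leaving out single arrays gave 159 to 422 that rose and 645 to 1119 that fell. Among the specification genes the count that rose was 0 in all fits except array weights (1, Alpl), median centring (1, Alpl), and leaving out single arrays, where it ran from 0 to 2 (Ifitm1 without knockout replicate 2, Tfap2c and Alpl without knockout replicate 3). The count that fell was 0 in every fit run, and no tested member changed sign. Without knockout replicate 1, the differences of Prdm1, Tfap2c, Prdm14 and Tcl1 were 0.01, 0.53, 0.64 and 0.61, against 0.22, 0.83, 1.81 and 1.25 with all arrays. With the replicate number as a block, 207 probe sets rose and 0 specification genes passed. Deviations of same-numbered arrays correlated at -0.17, -0.25 and -0.17. Deviations from the mean of 3 arrays are tied to each other, so these values cannot settle whether the numbers pair the samples. Correlations were positive for knockout replicate 1 with wild-type replicate 2 (0.33), 2 with 3 (0.34) and 3 with 1 (0.24). No fit used these pairs, and what they share was not tested. Leaving out an array leaves 2 in its group, and the same probe sets were tested. Prdm14, Tcl1 and Dnd1 lay too low to be tested, and Nanos2 and Nanos3 have no array values here.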
